A study of Mus musculus with 18 samples.

Results

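The late response of the mouse heart to a single radiation dose was described from 6 CD-1 mice killed 6 weeks after 25 Gy and 6 control mice, which are 12 of the 18 mice in the series. The members were chosen by their labels alone, and the other 6 mice, taken 2 weeks after the same dose, entered the fit and are used below for a direct comparison of the times. CD-1 is an outbred stock, the mice were males and females of at least 8 weeks of age without a sex given in the labels for single samples, and all groups were anesthetized. The labels place the samples in the septum, call the radiation gamma and describe the controls as untreated apart from anesthesia, whereas the study's methods speak of ventricle, X-rays given to the whole heart and a sham procedure. RNA was sequenced from each mouse separately, no genetic change was carried by any group, and genes were measured as estimated read counts, given here as CPM, each mouse's counts brought to a common library total after scaling by TMM (the trimmed mean of M-values).

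Ionizing radiation breaks DNA, and the tumor suppressor p53 then switches on genes that stop the cell cycle or start cell death. Damaged cells also secrete inflammatory factors, and fragments of DNA or RNA in the wrong place can trigger interferon genes, whose products restrict viruses and raise antigen presentation. In the heart, the capillary endothelium divides more readily than the cardiomyocytes, which are terminally differentiated, contract, and draw most of their energy from fatty acids burned in mitochondria.

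Estimated counts summed to between 11522987 and 14845188 per mouse at 6 weeks (median 12452175), against 12202905 to 15501019 in controls (median 14147778), which gave P = 0.0779 in an exact permutation test (two-sided, adjusted P = 0.0779 over 3 such tests). A floor of 3 counts corresponded to 0.179 to 0.278 CPM in a mouse, and it covers counting error only. The scaling factors did not overlap between the groups, with 0.844 to 0.991 in controls and 1.04 to 1.13 at 6 weeks (exact permutation test, P = 0.00216, the smallest that 6 mice against 6 can give, adjusted P = 0.00648). Mitochondrially encoded genes took 19.8 to 25% of the counts in controls and 16.5 to 20% at 6 weeks (exact permutation test, P = 0.00433, adjusted P = 0.00649). When counts were scaled by library size only, the median change over the genes tested was 0.24 in log2 units in place of -0.02, so small falls depend on the scaling. Cardiomyocyte markers were abundant in every mouse, with a summed level of 93700 to 124000 CPM in controls and 81300 to 92300 at 6 weeks, and the surfactant genes of lung were under the filter. Genes of atrial muscle were present at very different levels within each group, with 281 to 1640 CPM summed in controls and 91 to 727 at 6 weeks, and their part in the results was not tested beyond the covariate fit given with the alternatives. Summed Y-linked genes were at 0 to 1.76 CPM in replicates 1 to 3 and at 129 to 164 CPM in replicates 4 to 6 of all groups, so each group held 3 mice of either kind and the replicate number carries this difference. With Y-linked expression as a covariate 2081 genes were higher and 1788 lower at 6 weeks. Control replicate 4 stood apart from the other controls in genes of matrix and macrophages, and the results that rest on it are given with and without this mouse.

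The test covered 15054 genes that reached 0.23 CPM in 6 or more mice, in 1 edgeR quasi-likelihood fit with P values adjusted by the Benjamini-Hochberg method over all of them. At 6 weeks, 2029 genes (13.5%) were higher and 1731 (11.5%) lower than in controls at an adjusted P under 0.05. These shares over all genes are the background for every count of called list members below. Past 2-fold, the response was strongly one-directional, with 793 genes higher (5.27%) and 103 lower (0.684%). The 6 irradiated mice lay above all 6 controls for 873 genes (5.80%) and below all of them for 516 (3.43%). With library size only, 5494 genes were higher and 326 lower. Past 2-fold 1237 were higher and 56 lower by that scaling, so the rising side was the larger under either scaling and the balance of small changes was not fixed by the data. Of the 896 genes past 2-fold, 895 had the same sign and 826 also an adjusted P under 0.05 in the length-corrected TPM values of the authors, tested with limma on log2(TPM + 1). Of all 3760 called genes, only 2850 had the same sign there, and the median change over the genes tested was 0.29 in log2 units. The coding share was high, with 764 of the 793 rising genes and 97 of the 103 falling genes annotated as protein coding. The P values set a difference between groups against the spread between mice. Bulk RNA cannot tell fewer cells of a type from less RNA per cell.

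**Figure D1:**
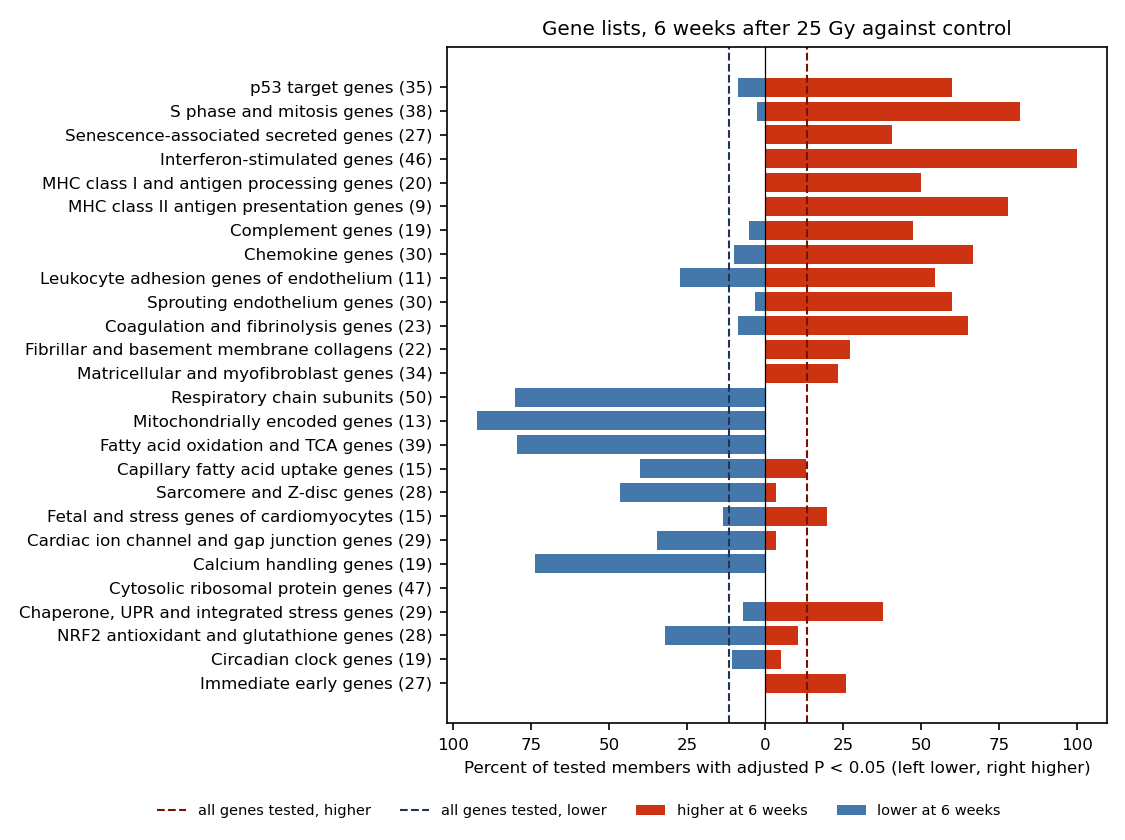
Percent of the tested members of each gene list (number tested in parentheses) that were higher (right, red) or lower (left, blue) at 6 weeks than in controls at an adjusted P under 0.05, with dashed lines at the 13.5% and 11.5% of all genes tested. Interferon, antigen presentation and cell cycle lists reach far to the right, and mitochondrial, fatty acid and calcium handling lists to the left, the latter under TMM scaling: with library size only 9 of 50 respiratory chain subunits and 1 of 19 calcium handling genes were lower.

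The strongest rises, taken by log2 fold change among named genes with non-overlapping groups and a mean of at least 1 CPM, fell on a DNA damage gene, interferon genes and a vessel peptide. Zfp365, a zinc finger gene known as a p53 target that protects the genome, headed them. It was at 0.0863, 0.145 and 0.185 CPM (lowest, median, highest) in controls and at 0.445, 4.98 and 8.29 CPM at 6 weeks, which is 4.85 in log2 units (SE 0.799, adjusted P = 0.000139). All 6 irradiated mice were higher than any control, but replicates 4 and 5, at 0.445 and 1.05 CPM, stood far under the other irradiated mice. Apln, the peptide apelin that endothelial tip cells release, was the most abundant of the 15, at 10.8, 13.1 and 19.3 CPM in controls and 142, 197 and 248 CPM at 6 weeks. It rose 14.5-fold (log2 3.86, SE 0.23, adjusted P = 7.18e-09). The groups were far apart. Rgs16, which shortens signaling by G proteins, was at 0.74, 1.42 and 1.69 CPM in controls and 11.6, 17 and 23.2 CPM at 6 weeks (log2 fold change 3.69, adjusted P = 3.02e-08). Its 6 irradiated mice were all far from the controls.

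Gtse1, a p53-induced and mitosis-linked gene, went from 0, 0.238 and 0.347 CPM to 2.08, 2.59 and 7.16 CPM (log2 fold change 4.21, adjusted P = 0.000125). Itgax, which encodes CD11c of dendritic cells and activated macrophages, went from 0, 0.368 and 0.555 CPM to 1.87, 3.63 and 13.3 CPM (3.92, adjusted P = 0.000162), and its highest value belonged to 6-week replicate 6. Membrane proteins related to Dispatched, which releases hedgehog, and to its receptor Patched were among the strongest although both were rare in the control heart. Disp2 was at 0, 0.0788 and 0.167 CPM in controls and 0.416, 1.54 and 2.26 CPM at 6 weeks (4.06), and is given without a test because it passed the filter through the irradiated mice. Ptchd1 was at 0, 0.159 and 0.26 CPM in controls and 0.964, 2.32 and 3.82 CPM at 6 weeks (3.92, adjusted P = 5.02e-06). The irradiated mice exceeded every control for both, which the rule for the strongest rises required. The control values lay near or under the 3-count floor, so the size of these folds is poorly fixed. The remaining 8 genes belong to interferon-induced families or are a chemokine and are described next.

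**Figure D2:**
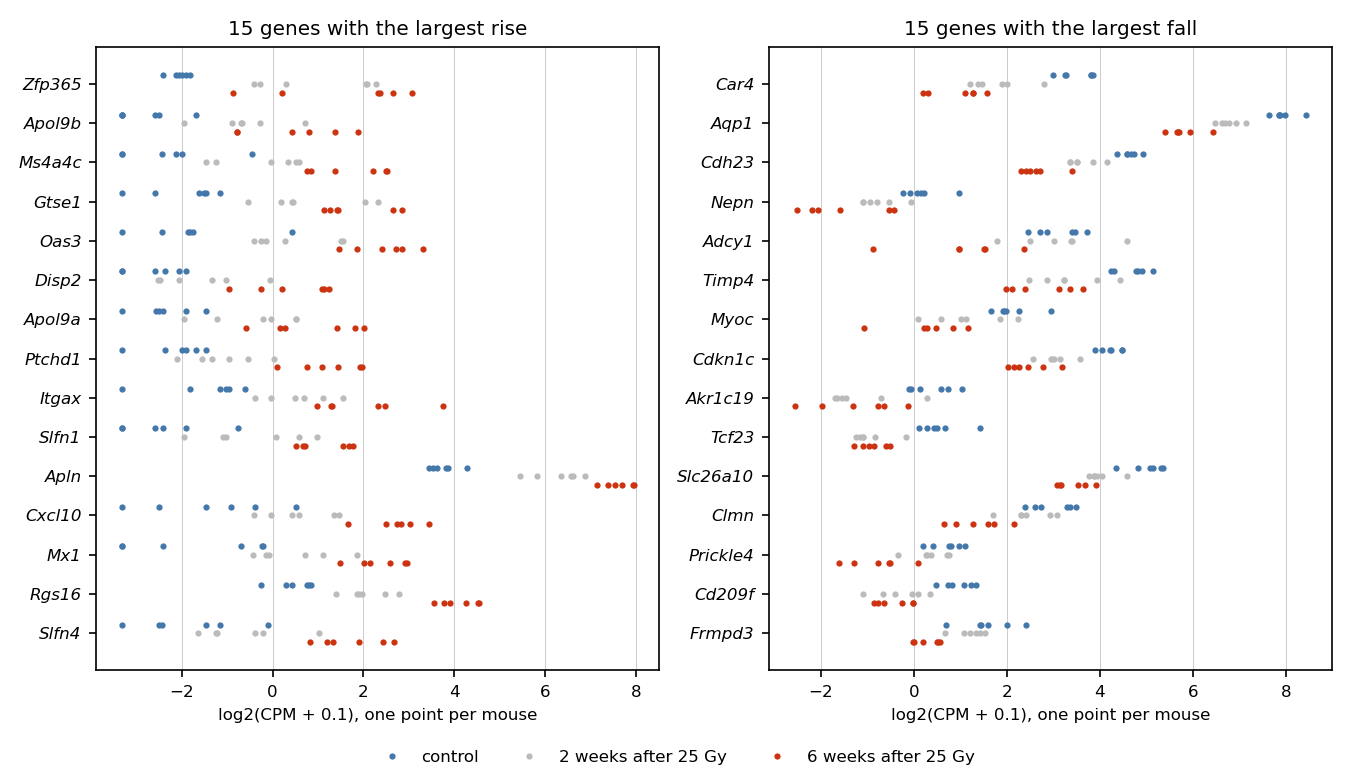
Level of the 15 genes with the largest rise (left) and the 15 with the largest fall (right) on a log2(CPM + 0.1) axis, with 1 point per mouse for controls (blue), 2 weeks (grey) and 6 weeks (red). The red and blue points do not overlap for any of the 30 genes, which the rule required, and Apln (142 to 248 CPM at 6 weeks) and Aqp1 (42.1 to 86.1 CPM) are the most abundant of each side.

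Interferon-stimulated genes were the most complete of the lists. This list, like the others, was chosen with earlier results of these data known, so its counts are a description and not a test. All 46 tested members of the list were higher at 6 weeks at an adjusted P under 0.05, against 13.5% of all genes, and 38 of them rose past 2-fold. Their median log2 fold change was 1.61, with a range of 0.6 to 4.08, beside -0.019 over all genes tested. In 36 of the 46 every irradiated mouse was above every control, against 5.80% of all genes, and their summed level was 255 to 554 CPM in controls and 739 to 1630 CPM at 6 weeks. Most of these genes were measurable in the control heart, since 42 of the 46 reached the minimum in all 6 controls, and those 42 were all among the called genes. A further gene of the list, Gbp6, was not analysed here.

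Many promoters of these genes carry the interferon response element, the site of STAT and IRF factors, searched here as GAAA, any 2 bases and GAAA again on both strands in windows from 250 bases before to 50 after each RefSeq gene start. The letters were in 3.44% of all 32851 windows and in 3.83% of the 11183 tested genes that had a window, but in 18 of the 33 interferon-stimulated genes with one (54.5%). The windows of Ifit1 (chr19:34640639-34640938 on the plus strand), Isg15 (chr4:156200769-156201068 on the minus strand), Oas3 (chr5:120777610-120777909 on the minus strand), Cxcl10 (chr5:92348840-92349139 on the minus strand) and Apol9a (chr15:77411031-77411330 on the minus strand) are shown because these genes rose strongly and hold the motif, which is in capitals, in the gene's direction (RefSeq, GRCm38.p6). Cxcl10 and Apol9a are not members of the list. No window with the motif was found for Irf7, Oasl1, Mx1 or Ms4a4c, which also rose strongly. A match of letters is a description and not evidence of binding.
Ifit1: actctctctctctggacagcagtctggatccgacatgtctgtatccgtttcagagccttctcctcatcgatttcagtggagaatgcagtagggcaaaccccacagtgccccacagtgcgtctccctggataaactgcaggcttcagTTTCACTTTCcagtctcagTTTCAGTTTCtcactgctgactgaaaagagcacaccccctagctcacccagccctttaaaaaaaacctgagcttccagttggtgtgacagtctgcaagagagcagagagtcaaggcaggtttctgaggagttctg
Isg15: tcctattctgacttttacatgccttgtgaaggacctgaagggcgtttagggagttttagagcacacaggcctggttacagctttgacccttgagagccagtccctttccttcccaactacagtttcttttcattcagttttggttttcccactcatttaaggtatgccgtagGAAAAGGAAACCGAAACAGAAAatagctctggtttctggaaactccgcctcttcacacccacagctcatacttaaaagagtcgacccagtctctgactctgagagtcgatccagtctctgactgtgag
Oas3: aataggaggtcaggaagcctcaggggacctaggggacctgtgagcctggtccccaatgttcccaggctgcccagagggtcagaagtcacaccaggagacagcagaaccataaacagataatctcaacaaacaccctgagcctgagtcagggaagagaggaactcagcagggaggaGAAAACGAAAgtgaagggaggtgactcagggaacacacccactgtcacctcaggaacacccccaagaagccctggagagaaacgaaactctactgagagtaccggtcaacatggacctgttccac
Cxcl10: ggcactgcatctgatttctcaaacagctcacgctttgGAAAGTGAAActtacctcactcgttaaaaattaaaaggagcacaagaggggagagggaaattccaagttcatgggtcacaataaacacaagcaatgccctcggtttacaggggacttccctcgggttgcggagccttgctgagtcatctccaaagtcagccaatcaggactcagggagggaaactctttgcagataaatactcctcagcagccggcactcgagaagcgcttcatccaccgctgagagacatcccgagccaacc
Apol9a: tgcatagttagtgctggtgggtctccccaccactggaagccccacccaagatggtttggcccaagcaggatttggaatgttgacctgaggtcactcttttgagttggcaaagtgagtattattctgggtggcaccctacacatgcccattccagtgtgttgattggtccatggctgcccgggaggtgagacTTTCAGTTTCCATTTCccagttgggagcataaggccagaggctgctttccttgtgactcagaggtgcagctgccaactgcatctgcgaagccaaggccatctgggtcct
Ifit1 has 2 separate copies, in Apol9a 2 overlapping copies form a single run, and in Isg15 3 overlapping copies do. The single copy of Cxcl10 begins at position -213 from the gene start and that of Oas3 at -75.

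Irf7, the transcription factor that amplifies interferon production, was at 3.61, 6.74 and 12.1 CPM in controls and 26.5, 83.8 and 139 CPM at 6 weeks, which is 3.51 in log2 units (SE 0.402, adjusted P = 8.8e-06). Ifit1, which binds viral RNA caps, went from 1.2, 1.94 and 3.25 CPM to 7.24, 19.1 and 31.7 CPM (3.21, adjusted P = 1.48e-05). Isg15, a ubiquitin-like modifier, went from 0.69, 1.44 and 2.15 CPM to 3.54, 9.34 and 16.2 CPM (2.76, adjusted P = 7.49e-05). None of the 3 had overlapping groups, yet the irradiated mice differed widely among themselves. The oligoadenylate synthetase family, which starts RNA decay, rose as well, Oas3 from 0, 0.179 and 1.25 CPM to 2.65, 5.85 and 9.91 CPM (4.08, adjusted P = 3.6e-05). The related Oasl1 went from 0.37, 0.973 and 2.08 CPM to 5.63, 11.7 and 17 CPM (3.31, adjusted P = 2.88e-05). Mx1, a dynamin-like GTPase that blocks viruses, went from 0, 0.304 and 0.763 CPM to 2.71, 5.08 and 7.68 CPM (3.79, adjusted P = 3.72e-05). Interferon-induced families outside the list were also among the 15 strongest rises. They were Apol9b (4.46) and Apol9a (4.05), apolipoproteins L whose near-identical sequences let reads be split between them. Slfn1 (3.89) and Slfn4 (3.60) are Schlafen genes of lymphoid and myeloid cells with close relatives, and Ms4a4c (4.24) is a tetraspanning membrane protein of leukocytes. Apart from Apol9b, their adjusted P lay between 2.35e-05 and 0.000126. No irradiated mouse overlapped a control, which the rule for the strongest rises required. Control replicate 4 was the highest control for Apol9b, Ms4a4c, Slfn1 and Slfn4, and also for Oas3, Mx1 and Cxcl10. Apol9b passed the filter only with the irradiated mice counted, so its fold is a description.

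The level of the response differed between mice. As the median over the 46 genes of log2 CPM minus the control mean, the 6-week mice reached 1.04 (replicate 5), 1.41, 1.46, 1.87, 1.97 and 2.29 (replicate 3), and the controls ran from -0.71 (replicate 3) to 0.53 (replicate 1). The lowest irradiated mouse was therefore above the highest control on this scale. Replicate 5 was the lowest irradiated mouse in 37 of the 46 genes, and control replicate 3 the lowest control in 38. At 2 weeks the same medians ran from 0.23 to 1.53 and overlapped both groups. The list kept all 46 calls without control replicate 4, when its median was 1.79.

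**Figure D3:**
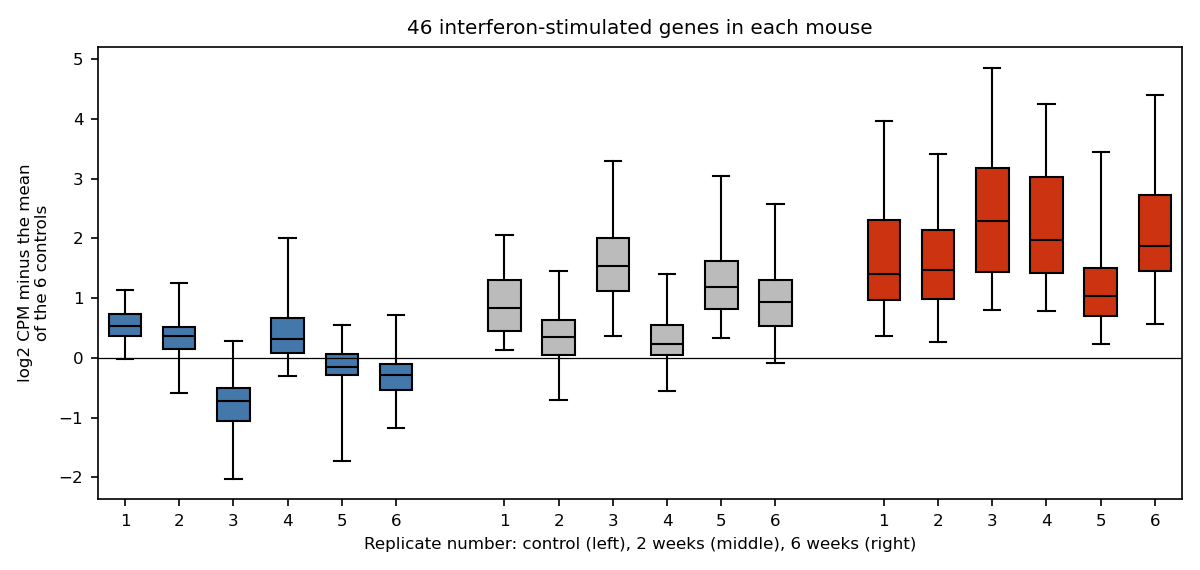
Log2 CPM of the 46 interferon-stimulated genes in each of the 18 mice, as the difference from the gene's mean in the 6 controls (box, quartiles; line, median; whiskers, lowest and highest gene). The medians of the 6-week mice (red) lie between 1.04 and 2.29, above all control medians (blue, -0.71 to 0.53), and those of the 2-week mice (grey, 0.23 to 1.53) overlap both groups.

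Antigen presentation rose with them. Of 20 tested genes of MHC class I and peptide processing, 10 were higher and none lower (median log2 fold change 0.62), and of 9 genes of class II, 7 were higher and none lower (median 2.21), beside 13.5% of all genes. The light chain B2m was at 61.9, 144 and 234 CPM in controls and 243, 334 and 458 CPM at 6 weeks (log2 fold change 1.21, adjusted P = 0.00557), with groups that were close but did not overlap. Psmb8, a subunit of the immunoproteasome, was 2.31-fold higher with overlapping groups (adjusted P = 0.00186). Cd74, the invariant chain that escorts class II molecules, was among the 15 largest gains in CPM, from 13.5, 46.3 and 74.6 to 232, 259 and 405 CPM (2.61, adjusted P = 1.88e-05). Cathepsin S (Ctss), which trims that chain, went from 3.24, 7.42 and 17.1 CPM to 24.8, 37.3 and 62.9 CPM (2.21, adjusted P = 2.63e-05). The peptide exchange gene H2-DMa rose 4.69-fold (adjusted P = 0.000483). The class II beta chain H2-Ab1 was at 0.333, 1.22 and 3.58 CPM in controls and mostly at 10.1 to 21.7 CPM at 6 weeks, but 6-week replicate 1 had 0.179 CPM, less than any control. The change was 3.06 in log2 units (SE 0.703, adjusted P = 0.00353), 3.33 without that mouse, and with voom and sample weights the call was lost (2.43, adjusted P = 0.314). MHC genes are highly polymorphic and the stock is outbred, and how much the fit of each mouse's alleles to the reference moves these values was not tested.

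Chemokine genes were largely on the rising side, with 20 of 30 tested members higher and 3 lower (median log2 fold change 1.42). Only 25 of the 30 would have been kept without the 6-week mice, so this count and median are not read as support, and of the 20 genes at the minimum in all controls 12 were higher and 3 lower. Cxcl10, the interferon-induced attractant of T cells, went from 0, 0.346 and 1.32 CPM to 3.05, 6.82 and 10.8 CPM (3.81, adjusted P = 1.24e-05). Ccl5, a product of T cells and other cells, went from 0.25, 0.346 and 1.04 CPM to 2.8, 3.52 and 5.72 CPM (2.92, adjusted P = 1.82e-05). Ccl12, a ligand of Ccr2, rose 4.17-fold (adjusted P = 5.35e-05) and Cxcl16 2.48-fold (adjusted P = 3.04e-06), both without overlap. Against these, Ccl21a, made by lymphatic vessels, was at 12.5, 17.7 and 30.5 CPM in controls and 6.81, 8.91 and 13.3 CPM at 6 weeks and fell by 1.07 on the log2 scale (adjusted P = 0.00191), and its reads can be shared with near-identical Ccl21 copies, so that value is uncertain. Of 19 complement genes, 9 were higher and 1 lower (median 0.77). They included C1qa (1.24) and C1qb (1.29), subunits of the first component made by macrophages, and Itgam (1.32), which encodes a complement receptor of myeloid cells, at adjusted P of at most 8.14e-05.

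Markers of macrophages rose in number, with 14 of 21 tested genes higher and 1 lower, a median of 0.88 and a summed level of 215 to 607 CPM in controls and 524 to 717 CPM at 6 weeks. Only 2 of the 6 irradiated mice exceeded every control in this sum, since control replicate 4 was high. Ccr2, the receptor of recruited monocytes, was at 0.648, 0.933 and 6.52 CPM in controls and 10.1, 12 and 16.6 CPM at 6 weeks (2.61, adjusted P = 0.000283). Its highest control was replicate 4, and without that mouse the log2 fold change was 3.58. Adgre1, the F4/80 antigen, behaved alike, with 1.26 (adjusted P = 0.000708) and 1.57 without control replicate 4. Aif1 rose 3.34-fold (adjusted P = 2.36e-05). Cd163, a scavenger receptor of resident macrophages, was the member that fell, from 9.67, 14.4 and 29.1 CPM to 5.11, 8.33 and 10.5 CPM (-0.98, adjusted P = 0.00977, and with TPM -0.39, adjusted P = 0.132). Cd209f, a C-type lectin, also fell (-1.45, adjusted P = 0.000379), from 1.29 to 2.41 CPM down to 0.451 to 0.895 CPM.

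Lymphocyte markers were scarce, and most of those tested passed the filter with the help of the irradiated mice, so their counts are not read: 12 of 20 genes of T and NK cells were tested, and 5 of the 12 would have been kept without the 6-week mice. Their summed level was 4.91 to 12.6 CPM in controls and 12.8 to 20.8 CPM at 6 weeks. Gzmb, the granule protease of killer cells, had 0 counts in all 6 controls and 55 in the 6 irradiated mice, 0.297, 0.633 and 1.25 CPM, at least 17-fold higher against a floor of 3 counts over the control group. Nkg7, another granule gene, was at 0, 0.0703 and 0.278 CPM in controls and 0.483, 0.632 and 1.63 CPM at 6 weeks, given without a test since it too passed the filter through the irradiated mice. Summed markers of dendritic cells were 34.6 to 42.8 CPM in controls and 44.8 to 59.9 CPM at 6 weeks, and those of B and plasma cells 38.4 to 50.9 and 47.3 to 64 CPM. Neutrophil markers were at 1.3 to 20.7 CPM in controls and 5.62 to 13.9 CPM at 6 weeks, with 8 of 12 genes below the filter.

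Targets of p53 rose in number at 6 weeks, with 21 of 35 tested targets higher and 3 lower (median log2 fold change 0.73), beside 13.5% higher and 11.5% lower of all genes. Cdkn1a, the p21 inhibitor of cyclin-dependent kinases, was at 3.25, 6.58 and 12.8 CPM in controls and 33.2, 64.8 and 90.5 CPM at 6 weeks, a rise of 3.09 (SE 0.298, adjusted P = 1.47e-06). Eda2r, a death receptor of the TNF family, went from 2.59, 3.65 and 5.4 CPM to 20.7, 24.3 and 29.8 CPM (2.59, adjusted P = 9.73e-09). Phlda3, an Akt repressor, went from 3.42, 4.51 and 5.67 CPM to 16, 22.1 and 25.3 CPM (2.21, adjusted P = 9.54e-09). In these 3 genes the groups were far apart. Zmat3, an RNA-binding zinc finger protein, rose 3.32-fold, Sesn2, a stress-induced inhibitor of mTORC1, 3.55-fold, and the pro-apoptotic Bax 2.45-fold, with adjusted P of at most 2.7e-07 and no overlap. Other targets went down. Ccng1 (cyclin G1) was at 687, 864 and 892 CPM in controls and 444, 518 and 747 CPM at 6 weeks (-0.54, adjusted P = 0.00358). Sesn1, a relative of Sesn2, fell by 0.45 (adjusted P = 0.00636, lost with library size only at -0.19, adjusted P = 0.189). Both calls were lost with TPM (adjusted P = 0.254 and 0.926). Gdf15, a stress cytokine and p53 target, went from 1.55, 2.64 and 4.37 CPM to 8.3, 14.5 and 29.6 CPM (2.48, adjusted P = 2.23e-05).

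Genes of DNA replication and mitosis rose together with the p53 targets. Of 38 tested, 31 were higher and 1 lower, with a median of 1.14, and their summed level was 149 to 256 CPM in controls and 361 to 515 CPM at 6 weeks, above all controls in 6 of 6 mice. Ccnd1 (cyclin D1), which opens the G1 phase, was at 17.3, 24.9 and 33.2 CPM in controls and 101, 127 and 165 CPM at 6 weeks (2.35, SE 0.143, adjusted P = 7.18e-09), and is itself a growth factor target that quiescent cells can express. The helicase subunits of replication origins rose together, Mcm2 from 5.26, 6.74 and 9.92 to 10.9, 14 and 18.5 CPM (1.09, adjusted P = 4.74e-05), Mcm6 by 1.88-fold and Mcm3 by 2.2-fold, with groups that did not overlap. The proliferation markers Mki67 (1.22, adjusted P = 0.0139) and Top2a (1.55, adjusted P = 0.00292) rose with overlap, since controls alone ranged from 3.61 to 37 CPM and from 1.2 to 10.7 CPM. The exception was Cenpa, the histone of the centromere, at 19.9, 25.7 and 30 CPM in controls and 13.8, 17.1 and 20 CPM at 6 weeks (-0.51, adjusted P = 0.00164, lost with library size only at -0.24, adjusted P = 0.0633). The promoters of cell cycle genes often hold the CCAAT box, which NF-Y reads, and the cell cycle homology element TTTGAA, which DREAM and MuvB complexes read. CCAAT was in 37.4% of all windows, in 42.4% of the tested genes with one and in 25 of the 31 listed genes with one (80.6%), and TTTGAA in 17.9%, in 14.5% and in 18 of 31 (58.1%), on either strand, where the motifs can share 1 letter. The windows of Mcm2 (chr6:88898731-88899030 on the minus strand) and Ect2 (chr3:27153829-27154128 on the minus strand), a regulator of cell division, are shown because they have the smallest P among rising list members that hold both motifs, which stand in capitals (RefSeq, GRCm38.p6).
Mcm2: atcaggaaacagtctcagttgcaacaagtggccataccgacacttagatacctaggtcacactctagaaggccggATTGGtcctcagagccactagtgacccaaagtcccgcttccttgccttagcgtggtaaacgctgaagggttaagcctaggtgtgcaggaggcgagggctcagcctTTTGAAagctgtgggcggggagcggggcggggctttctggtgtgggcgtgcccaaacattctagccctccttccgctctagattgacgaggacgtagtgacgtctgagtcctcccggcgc
Ect2: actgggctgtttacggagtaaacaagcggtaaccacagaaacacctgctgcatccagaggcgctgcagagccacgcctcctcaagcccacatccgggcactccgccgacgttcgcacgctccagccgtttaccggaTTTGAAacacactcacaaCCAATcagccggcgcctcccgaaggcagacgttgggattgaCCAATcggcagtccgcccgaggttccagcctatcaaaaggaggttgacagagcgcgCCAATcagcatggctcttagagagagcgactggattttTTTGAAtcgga
Ect2 was at 0.259, 0.723 and 1.63 CPM in controls and 2.09, 2.51 and 4.29 CPM at 6 weeks (1.63, adjusted P = 0.000846), without overlap.

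Genes of the senescence-associated secretome moved less uniformly, with 11 of 27 tested members higher and none lower (median 0.74), and Il6, Il1a and Areg did not pass the filter. Without the 6-week mice 24 of the 27 would have been kept, and of the 20 at the minimum in all controls 8 were higher. Plau, the protease urokinase, rose 2.31-fold (adjusted P = 9.78e-06) and its receptor Plaur 2.97-fold (adjusted P = 5.82e-05), both without overlap. Both also belong to coagulation and fibrinolysis, where 15 of 23 were higher and 2 lower (median 0.91), and 12 and 2 of the 19 at the minimum in all controls. Anxa2, a cell surface assembly site for plasmin, rose from 44.6, 53.7 and 62.2 CPM to 89.8, 130 and 152 CPM (1.23, adjusted P = 5.55e-07). Vwf, the endothelial platelet tether, went the other way, from 98.6, 110 and 142 CPM to 54.9, 66.9 and 113 CPM (-0.68, adjusted P = 0.00487), a call lost with library size only (-0.41, adjusted P = 0.059).

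Genes of sprouting endothelium, which growing vessel tips express, were mostly on the rising side, and 18 of 30 were higher and 1 lower (median log2 fold change 0.56). Beside Apln, Esm1 (endocan), a proteoglycan of tip cells, was at 1.25, 1.51 and 2.41 CPM in controls and 5.19, 15.8 and 30.5 CPM at 6 weeks (3.32, SE 0.394, adjusted P = 1.16e-05). Angpt2, which destabilizes vessels through the Tie2 receptor, went from 2.92, 3.52 and 4.56 CPM to 11.7, 16.3 and 19.2 CPM (2.15, adjusted P = 1.53e-07). The growth factor Pgf rose 3.79-fold and the adhesion molecule Mcam 2.9-fold, and all 4 genes had groups far apart. Some receptors stood on the other side: Tek, which encodes Tie2, was at 54.6, 60.9 and 69.1 CPM in controls and 31.1, 37 and 41.1 CPM at 6 weeks (-0.75, adjusted P = 2.24e-05). Its partner Tie1 fell by 0.44 (adjusted P = 0.000384, lost with library size only at -0.17). The VEGF receptor Flt1 fell by 0.67 from 140 to 211 CPM down to 102 to 116 CPM (adjusted P = 1.16e-05, with library size only -0.41). Not all receptors fell. Flt4 was at 34.5 to 43.6 CPM in controls and 43.1 to 60.3 CPM at 6 weeks, and Eng at 202 to 284 and 279 to 384 CPM, both with overlap. Of 15 general endothelial markers, 7 were higher and 3 lower (median 0.17), and their summed level of 1960 to 2470 CPM was above the 1680 to 1950 CPM of the controls in 6 of 6 mice. The junction genes Pecam1 (0.9, adjusted P = 9.83e-07) and Cdh5 (0.53, adjusted P = 0.000197) rose without overlap. Leukocyte adhesion genes split, with 6 of 11 higher and 3 lower (median 0.54). E-selectin (Sele), which inflamed endothelium displays, went from 0.983, 1.32 and 2 CPM to 2.97, 4.53 and 6.62 CPM (1.71, adjusted P = 4.73e-05). Selplg, the selectin ligand carried by leukocytes, rose 3.3-fold (adjusted P = 1.33e-05).

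The steepest falls were in capillary genes. Car4, a carbonic anhydrase anchored on the capillary surface, was at 7.91, 11.7 and 14.4 CPM in controls and 1.04, 2.16 and 2.87 CPM at 6 weeks, a fall of 2.55 on the log2 scale (SE 0.278, adjusted P = 4.78e-06). Aqp1, the water channel of capillary endothelium, went from 199, 232 and 347 CPM to 42.1, 51.5 and 86.1 CPM (-2.12, SE 0.163, adjusted P = 1.12e-07). The highest irradiated mouse was below the lowest control for both genes, which the rule for the strongest falls required. Both kept their direction and call in every alternative fit run. They belong to a list of 15 capillary and fatty acid uptake genes of which 6 were lower and 2 higher (median -0.21, but 0.05 with library size only and 4 of 15 lower). Cd36, the fatty acid transporter shared with cardiomyocytes, was 1.29-fold lower (adjusted P = 0.0113, lost with library size only at -0.11, and 0.07 with TPM). Fabp5 was 2.14-fold higher with overlap (adjusted P = 0.0196, and 0.0622 without 6-week replicate 1). Lymphatic markers leaned down, with 4 of 8 lower and 1 higher (median -0.23, but 0.03 with library size only). Reln fell by 0.82 (adjusted P = 0.00201). Mmrn1 fell by 0.86 (adjusted P = 0.00507, lost with TPM at -0.26, adjusted P = 0.155). Prox1, the lymphatic transcription factor that cardiomyocytes also express, fell by 0.4 (adjusted P = 0.000541, lost with library size only at -0.14, and 0.02 with TPM).

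The other strong falls were spread over genes with little in common by known function. Cdh23, an atypical cadherin best known from hair cells, was at 20.5, 24.6 and 30.4 CPM in controls and 4.83, 5.8 and 10.4 CPM at 6 weeks (-1.96, SE 0.176, adjusted P = 6.12e-07). Timp4, the metalloproteinase inhibitor typical of heart, went from 18.9, 27.6 and 35.3 CPM to 3.87, 6.86 and 12.4 CPM (-1.84, adjusted P = 0.00037). Cdkn1c, the imprinted inhibitor p57, went from 14.8, 18.7 and 22.3 CPM to 3.94, 5.03 and 9.06 CPM (-1.73, adjusted P = 4.75e-06), in the opposite direction to its relative Cdkn1a. Adcy1, an adenylyl cyclase, varied more, with 5.37, 8.79 and 13.1 CPM in controls and 0.445, 2.3 and 5.04 CPM at 6 weeks (-1.87, adjusted P = 0.00488). Slc26a10 of the anion exchanger family fell by 1.6, the calponin-domain protein Clmn by 1.6, Prickle4 of the planar polarity family by 1.53 and the scaffold protein Frmpd3 by 1.45, with adjusted P between 9.16e-06 and 0.00069. Nepn (-1.89), a small leucine-rich proteoglycan, Myoc (-1.79), the secreted protein myocilin, Akr1c19 (-1.65), an aldo-keto reductase, and Tcf23 (-1.65), a helix-loop-helix factor, were all low in controls with medians of 0.983 to 3.77 CPM, and their adjusted P was between 0.000378 and 0.00682. Mylk4, a kinase of striated muscle that was named after its value was seen, was a much more abundant faller, from 159, 206 and 230 CPM to 50.9, 68.9 and 107 CPM (-1.42, adjusted P = 3.87e-06).

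Matrix genes were followed as collagens and as matricellular genes. Col4a1 and Col4a2, the paired chains of basement membrane collagen, had the largest gains in CPM of all genes after Ankrd1. Col4a1 was at 415, 630 and 734 CPM in controls and 1200, 1510 and 2000 CPM at 6 weeks (1.36, adjusted P = 7.4e-06). Col4a2 was at 368, 535 and 600 CPM and 1000, 1230 and 1630 CPM (1.31, adjusted P = 2.75e-06). Col18a1, which yields endostatin, rose 3.72-fold (adjusted P = 1.75e-05), Sparc, a matricellular protein that binds collagen, 2.37-fold (adjusted P = 1.01e-05) and the cytokine gene Tgfb1 1.66-fold (adjusted P = 7.39e-07), all without overlap. Fibronectin (Fn1) rose 2.91-fold with overlapping groups (adjusted P = 0.000478), and Meox1, a transcription factor of activated fibroblasts, 2.93-fold (adjusted P = 0.000605). In all, 6 of 22 collagens and 8 of 34 matricellular and myofibroblast genes were higher and none lower (medians 0.23 and 0.1).

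How much of the matrix was called depended on control replicate 4 and, for periostin, also on the method. Col1a1, the main fibrillar collagen of fibroblasts, was at 170, 269 and 899 CPM in controls and 232, 378 and 574 CPM at 6 weeks, with the 899 CPM from that mouse, and its change was 0.1 (adjusted P = 0.85) with all mice and 0.63 (adjusted P = 0.0196) without it. Periostin (Postn), a marker of activated fibroblasts, was at 17.6, 53.1 and 306 CPM in controls and 62.2, 139 and 236 CPM at 6 weeks, and moved from 0.76 (adjusted P = 0.292) to 1.79 (adjusted P = 0.000388). With all mice kept, Postn was called with voom and sample weights (1.41, adjusted P = 0.0161) and in limma on log2(TPM + 1) (1.63, adjusted P = 0.00723). Without control replicate 4, 11 of 22 collagens and 14 of 34 matricellular genes were higher, with medians of 0.41 and 0.36. Fibroblast markers as a group had a median of -0.01 (2 of 14 higher, 3 lower), and 0.17 without that control (5 higher, 3 lower). Pdgfra, the receptor that marks resting cardiac fibroblasts, was at 53.7, 69.5 and 97.3 CPM in controls and 34.1, 36.9 and 48.9 CPM at 6 weeks (-0.88, adjusted P = 8.43e-05). Gelsolin (Gsn) fell by 0.84 with overlap (adjusted P = 0.00598). Markers of smooth muscle and pericytes had a median of 0.02, with 3 of 14 higher and 1 lower, including the pericyte proteoglycan Cspg4 at 1.37-fold (adjusted P = 0.000571). The smaller marker lists had few calls, with 1 of 10 higher and 2 lower for Schwann cells and nerve (median -0.1), 1 of 9 higher for mesothelium and epicardium (-0.05), 1 of 8 higher for adipocytes (-0.08) and 1 of 4 higher for mast cells (-0.01), and each of these medians was above 0 with library size only (0.16, 0.21, 0.17 and 0.24). Of all genes 13.5% were higher and 11.5% lower, so counts this small, like those of the fibroblast markers, are not read as changes.

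Some genes were named after their values were seen, for their gains in CPM. Actb, cytoplasmic actin, was at 528, 741 and 863 CPM in controls and 1050, 1320 and 1520 CPM at 6 weeks (0.87, adjusted P = 1.03e-05). Nonmuscle myosin Myh9 rose 2.1-fold (adjusted P = 3.08e-05) and vimentin (Vim) of mesenchymal and endothelial cells 1.87-fold (adjusted P = 0.000168), neither with overlap.

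Cardiomyocyte genes moved down by small amounts, and the count called depends on the scaling. Of 50 nuclear-encoded respiratory chain subunits, 40 were lower and none higher (median log2 fold change -0.39) against 11.5% of all genes, but with library size only 9 were lower (median -0.13) and with TPM the median was 0.01. Of 39 genes of fatty acid oxidation and the TCA cycle, 31 were lower and none higher (median -0.43, and 13 lower with -0.16 by library size). Of 13 mitochondrially encoded genes 12 were lower (median -0.65, and 11 lower with -0.38 by library size). Uqcrfs1, the Rieske protein of complex III, was at 622, 723 and 790 CPM in controls and 429, 446 and 576 CPM at 6 weeks (-0.57, adjusted P = 6.79e-05, with library size only -0.31). Sdhd of complex II fell by 0.43 and Atp5g3 of the ATP synthase by 0.44 (adjusted P = 7.81e-05 and 8.04e-05), and with TPM these values were -0.02 and -0.03. Dlst of the oxoglutarate dehydrogenase was at 440, 484 and 613 CPM in controls and 286, 330 and 365 CPM at 6 weeks (-0.63, adjusted P = 7.03e-05, with library size only -0.36). Hadhb of the trifunctional protein fell by 0.47 (adjusted P = 7.78e-05, with TPM -0.06). mt-Nd4l (-0.65) and mt-Atp6 (-0.7) had non-overlapping or touching groups, and reads of such genes can be split with their nuclear copies. Under TMM scaling, the summed respiratory chain (21500 to 26200 CPM, controls 26400 to 35100) lay below all controls in every one of the 6 irradiated mice. The summed mitochondrial genes did so as well under that scaling. As plain shares of the counts, mitochondrially encoded genes overlapped, at 16.5 to 20% at 6 weeks and 19.8 to 25% in controls. The respiratory chain sums were not compared without TMM.

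**Figure D4:**
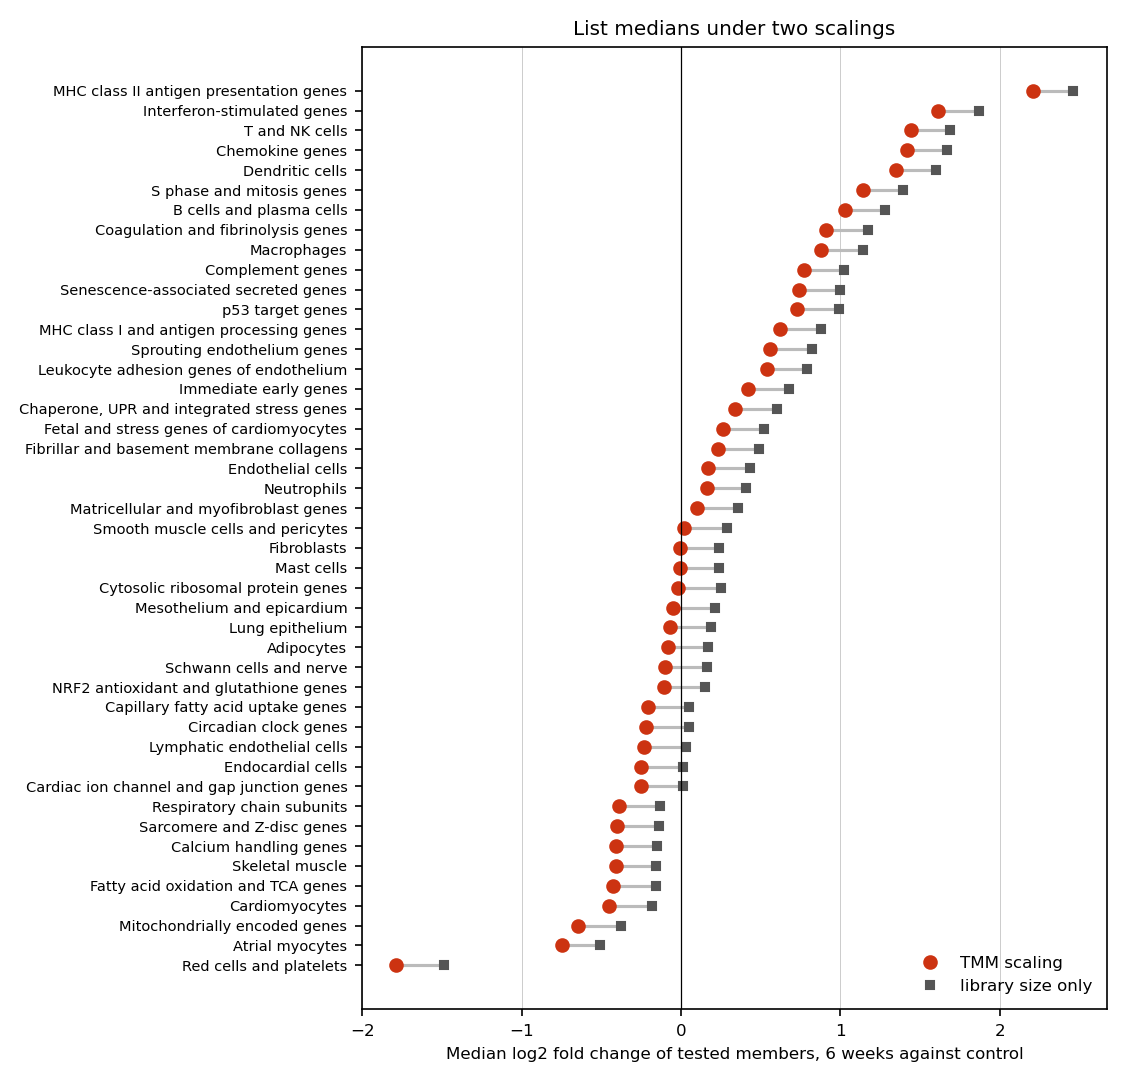
Median log2 fold change at 6 weeks of the tested members of each gene list under TMM scaling (red circles) and with library size only (grey squares), the grey line joining the pair. Library size moves every list up by about 0.24 to 0.3, so the interferon median stays high (1.61 and 1.87), the respiratory chain median stays lower but shrinks (-0.39 and -0.13), and the ion channel median crosses 0 (-0.25 and 0.01).

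Contraction and calcium handling followed the same pattern. Of 28 sarcomere and Z-disc genes, 13 were lower and 1 higher (median -0.4). Of 19 calcium handling genes 14 were lower and none higher (median -0.41). With library size only 2 and 1 were lower (medians -0.14 and -0.15). Actc1, cardiac actin, was at 3760, 5090 and 5250 CPM in controls and 2460, 3150 and 3570 CPM at 6 weeks (-0.61, adjusted P = 0.000292, with TPM -0.21 and adjusted P = 0.0737). Ryr2, the calcium release channel, went from 2230, 2570 and 3100 CPM to 1530, 1600 and 2190 CPM (-0.6, adjusted P = 0.000168), and stayed called in every scaling run. Csrp3, a Z-disc sensor of stretch, fell by 0.54 (adjusted P = 5.29e-05, with library size only -0.27). The light chain Myl3 fell by 0.46 (adjusted P = 0.00188), the pump inhibitor phospholamban Pln by 0.38 (adjusted P = 0.00145) and triadin (Trdn), a partner of the release channel, by 0.49 (adjusted P = 0.00175), of which Myl3, Pln and Trdn were lost with library size only (-0.19, -0.12 and -0.23) and Pln was 0.05 with TPM. The adult myosin Myh6 fell by 0.46 (adjusted P = 0.0259, lost with library size only at -0.19). The fetal myosin Myh7 ranged widely, from 481, 823 and 983 CPM in controls to 423, 1490 and 2390 CPM (0.9, adjusted P = 0.0715). Its call depended on the method, since Myh7 passed with DESeq2 (0.91, adjusted P = 0.0401), library size only (1.17, adjusted P = 0.0179) and log2(TPM + 1) (1.02, adjusted P = 0.0427). It also passed without 6-week replicate 4 (1.09, adjusted P = 0.0144) or 5 (1.07, adjusted P = 0.0229). Ankrd1, a stretch-induced titin-binding protein, was the member called higher in the main fit, from 1670, 1840 and 2610 CPM to 2050, 2710 and 4190 CPM (0.61, adjusted P = 0.0118), and had the largest gain in CPM of any gene. Of 15 fetal and stress genes, 3 were higher and 2 lower (median 0.26), and Hopx, a homeodomain regulator, fell by 0.63 (adjusted P = 0.000179, with library size only -0.37).

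Conduction genes bear on the study's question, since cardiac radiation is used against ventricular tachycardia. Of 29 genes of cardiac ion channels and gap junctions, 10 were lower and 1 higher (median -0.25), but with library size only 5 were lower and 4 higher (median 0.01). Gja1, the connexin of ventricular gap junctions, had a change of 0 in log2 units (SE 0.0849, adjusted P = 0.995), and its groups overlapped. The call turned on the scaling, with 0.26 (adjusted P = 0.0251) by library size only and 0.41 (adjusted P = 0.0026) with log2(TPM + 1). Gjc1, a connexin of the nodes, was higher by 0.54 (adjusted P = 0.000923) with overlap. Kcnip2, an accessory subunit of the transient outward potassium channel, was at 154, 203 and 233 CPM in controls and 84.8, 118 and 152 CPM at 6 weeks (-0.75, adjusted P = 0.000484, with library size only -0.5). Its pore partner Kcnd3 fell by 0.55 (adjusted P = 0.00113, with TPM -0.06). The pacemaker channel Hcn2 fell by 0.79 (adjusted P = 0.00171, with library size only -0.53).

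Stress programs other than p53 moved in part. Of 29 chaperone, unfolded protein and integrated stress genes, 11 were higher and 2 lower (median 0.34), among them Asns, the asparagine synthetase that ATF4 induces, at 2.46-fold (adjusted P = 0.000343). Of 28 NRF2 and glutathione genes, 9 were lower and 3 higher (median -0.11, but 0.15 with library size only). The heme-degrading Hmox1 rose from 10.9, 12.1 and 20.7 CPM to 28.1, 33 and 44.1 CPM (1.36, adjusted P = 2.83e-06). The peroxiredoxin Prdx6 fell by 0.42 (adjusted P = 0.000114, lost with library size only at -0.16). Immediate early genes had 7 of 27 higher and none lower (median 0.42), with Socs3, a feedback inhibitor of cytokine signaling, at 1.99-fold (adjusted P = 0.000198) and Myc at 2.11-fold (adjusted P = 0.000866). Of 19 clock genes, 1 was higher and 2 lower, near the background, Bhlhe40 at 0.65 and Hlf at -0.79. None of 47 cytosolic ribosomal protein genes passed the test (median -0.02), whereas 29 of them were higher with library size only. Hemoglobin (Hba-a1) varied from 42 to 762 CPM in controls and 24.2 to 101 CPM at 6 weeks (-2.2, adjusted P = 0.0313) and lost its call without control replicate 6 (-1.37, adjusted P = 0.143), and the part of residual blood in it was not tested. Napsa, on the lung list but known from other cells as well, rose 5.27-fold (adjusted P = 0.000268) from 0.151 to 0.694 CPM in controls.

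The direct comparison with the 2-week mice found 499 genes higher (3.31%) and 303 lower (2.01%) at 6 weeks than at 2 weeks. Against the controls, which both times share, 465 genes were higher (3.09%) and 290 lower (1.93%) at 2 weeks. Interferon-stimulated genes had 20 of 46 members higher at 6 weeks than at 2, and none lower, with medians against control of 0.84 at 2 weeks and 1.61 at 6 weeks. For sprouting endothelium 9 of 30 were higher at the later time (medians 0.19 and 0.56), for the senescence secretome 7 of 27 (0.06 and 0.74), for S phase and mitosis 7 of 38 (0.4 and 1.14), and for p53 targets 5 of 35 with 1 lower (0.51 and 0.73). Phlda3, Eda2r, Sesn2 and Bax did not pass the direct test (adjusted P = 0.696, 0.472, 0.792 and 0.817, log2 differences of -0.07 to 0.19), and their 2-week levels were already apart from controls. Esm1 was a late gene, at 0.733, 1.92 and 2.65 CPM at 2 weeks against 5.19 to 30.5 CPM at 6 weeks, a difference of 3.22 (adjusted P = 0.000288), while its 2-week value did not pass the test against control (0.1, adjusted P = 0.938). Sele (1.51, adjusted P = 0.0017) and Gdf15 (1.62, adjusted P = 0.00549) were likewise higher at 6 weeks than at 2, and their 2-week differences from control did not pass. Adcy1 was the reverse case, with 3.34, 9.14 and 23.8 CPM at 2 weeks and 0.445 to 5.04 CPM at 6 weeks (-2.06, adjusted P = 0.0163). On the falling side 11 of 39 fatty acid oxidation and TCA genes and 4 of 50 respiratory chain subunits were lower at 6 weeks than at 2, with list medians against control of -0.15 and -0.2 at 2 weeks. Without 6-week replicates 1, 3 or 6, the genes higher at 6 weeks than at 2 numbered 284, 270 or 219. With library size only 1098 were higher and 104 lower.

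**Figure D5:**
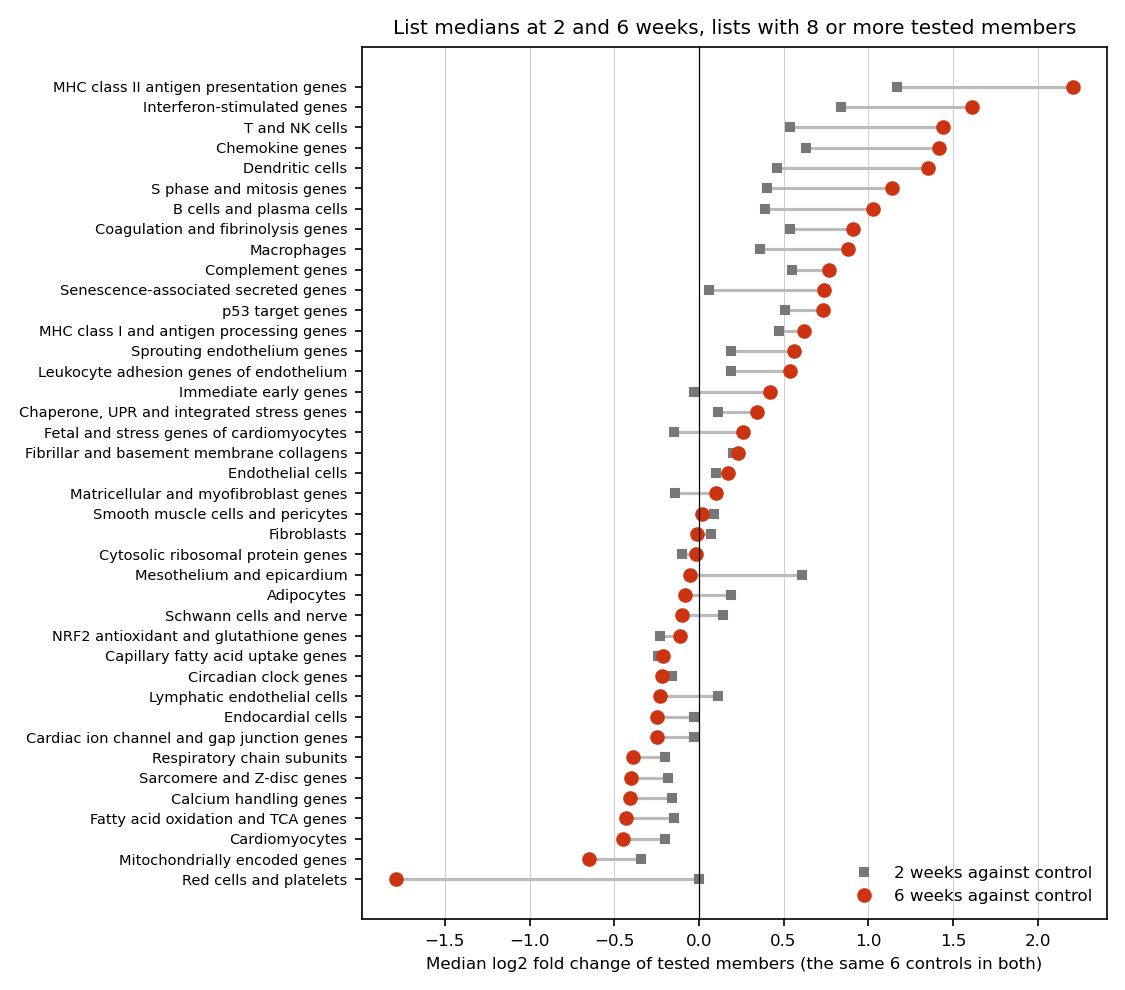
Median log2 fold change against the same 6 controls at 2 weeks (grey squares) and 6 weeks (red circles) for lists with at least 8 tested members, under TMM scaling. Interferon-stimulated genes go from 0.84 to 1.61 and the senescence secretome from 0.06 to 0.74. The collagen medians are close (0.2 and 0.23, the latter 0.41 without control replicate 4). Even so, 3 of 22 collagens were higher at 6 weeks than at 2 and none lower, beside 3.31% of all genes higher. List medians near 0 cross it with library size only, such as ion channels (-0.25 at 6 weeks by TMM, 0.01 by library size).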

How the data were processed

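RNA from 18 mouse hearts was sequenced by the authors as paired reads, and transcripts were quantified with Salmon 1.0 on GRCm38, per the submitters' notes, which also name CASAVA 1.8. The deposited estimated counts (expected counts per gene, one column per mouse) were rounded to whole numbers, and the TPM values deposited by the authors served as a check on a log2(TPM + 1) scale. Genes reaching 0.23 CPM in 6 or more mice were fitted in 1 model of 3 groups with edgeR 4.0.16 (quasi-likelihood, TMM) in R 4.3.3, with Benjamini-Hochberg adjustment. A gene was called at an adjusted P under 0.05. The standard error is the log2 change divided by the square root of F. DESeq2 1.42.0, limma 3.58.1 (voom with weights), other scalings and filters, a replicate block, covariates and leaving out each mouse were the alternatives. Steps were tested on simulated data. Strongest genes were the 15 named genes each way with the largest change among called genes with non-overlapping groups and a mean of at least 1 CPM, from 801 higher and 491 lower genes, and others come from gene lists. A few items are not reported here. Members and lists were chosen with earlier results of these data known. Batch and the sex of each mouse were not given in the sources used here, and Y-linked expression was tried as a covariate.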

Additional observations from a re-analysis of the deposited data

Results flagged for a closer look

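Among the genes named, 30 values stood apart from the other 5 mice of their group by Dixon's criterion, out of 273 groups of 6 tested, and chance alone flags about 1 in 20 groups. Of the 30, 11 belonged to control replicate 4, 4 to 6-week replicate 6 and 2 to control replicate 3. Control replicate 4 lay above the other mice of its group for Apol9b (0.208 CPM), Ms4a4c (0.624 CPM), Oas3 (1.25 CPM), Slfn1 (0.486 CPM), Nepn (1.87 CPM), Postn (306 CPM), Col1a1 (899 CPM), Hmox1 (20.7 CPM), Ccr2 (6.52 CPM), Adgre1 (22 CPM) and Nkg7 (0.278 CPM). Control replicate 3 lay above the other mice of its group for Aqp1 (347 CPM). Control replicate 5 lay above the other mice of its group for Myoc (7.64 CPM) and Tcf23 (2.57 CPM). Control replicate 2 lay above the other mice of its group for Mcm2 (9.92 CPM). Control replicate 3 lay below the other mice of its group for Col4a2 (368 CPM). Control replicate 1 lay below the other mice of its group for mt-Atp6 (14000 CPM). Control replicate 6 lay above the other mice of its group for Hba-a1 (762 CPM). 6-week replicate 6 lay above the other mice of its group for Itgax (13.3 CPM), Ect2 (4.29 CPM), Cd74 (405 CPM) and C1qa (43.3 CPM). 6-week replicate 4 lay above the other mice of its group for Cdh23 (10.4 CPM). 6-week replicate 4 lay below the other mice of its group for Sesn2 (15 CPM). 6-week replicate 1 lay above the other mice of its group for Mcm6 (26.3 CPM) and Plau (23.8 CPM). 6-week replicate 3 lay below the other mice of its group for Flt1 (102 CPM). 6-week replicate 2 lay above the other mice of its group for Vwf (113 CPM). 6-week replicate 5 lay above the other mice of its group for mt-Atp6 (14000 CPM) and Prox1 (120 CPM).

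The level at 6 weeks differed from that at 2 weeks, by the direct contrast of the edgeR fit at an adjusted P under 0.05, for 65 of the 137 genes followed, of which 47 were higher and 18 lower at 6 weeks. Of all genes tested, 3.31% were higher and 2.01% lower by this contrast. Many of the 137 genes were chosen for their change from control at 6 weeks, so their count is a description and not a test. The log2 differences of the higher genes were 1.98 for Ms4a4c, 1.95 for Oas3, 2.14 for Disp2, 2.48 for Ptchd1, 1.68 for Itgax, 1.35 for Slfn1, 1.29 for Apln, 2.12 for Cxcl10, 1.73 for Mx1, 2.04 for Rgs16, 2.29 for Slfn4, 0.57 for Zmat3 and 0.71 for Ccnd1. Disp2, which is in the counts above, passed the filter only with the 6-week mice counted. Its value is a description and not a tested result. Further higher genes had log2 differences of 0.53 for Mcm6, 0.56 for Mcm2, 0.67 for Plau, 1.62 for Gdf15, 2.03 for Irf7, 1.59 for Ifit1, 1.9 for Oasl1, 1.37 for Isg15, 1.3 for Cd74, 1.26 for Ctss, 0.72 for Cxcl16 and 2 for Ccl5. Further higher genes had log2 differences of 0.93 for Ccl12, 0.66 for C1qa, 0.8 for C1qb, 0.82 for Selplg, 1.51 for Sele, 0.84 for Mcam, 1.2 for Angpt2, 1.16 for Pgf, 3.22 for Esm1, 0.6 for Anxa2, 0.69 for Col4a1, 0.63 for Col4a2 and 1.23 for Col18a1. Further higher genes had log2 differences of 0.29 for Tgfb1, 0.77 for Sparc, 0.98 for Fn1, 0.66 for Hmox1, 0.78 for Myc, 0.42 for Pecam1, 0.4 for Cdh5, 0.37 for Actb and 0.49 for Myh9. The lower genes had log2 differences of -0.95 for Aqp1, -0.96 for Cdh23, -2.06 for Adcy1, -1.06 for Clmn, -1.18 for Prickle4, -0.98 for Frmpd3, -0.87 for Ccl21a, -0.24 for Sdhd, -0.24 for Atp5g3, -0.33 for Dlst, -0.4 for Actc1, -0.48 for Hopx, -0.53 for Kcnip2, -0.43 for Kcnd3, -0.36 for Tek, -0.74 for Reln, -0.92 for Mmrn1 and -1.08 for Mylk4. Which causes lie behind these differences was not tested.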

How the results depend on the processing

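Of 3415 alternative values of the 137 named genes, 3314 kept their direction and their side of the threshold, 72 were no longer past it, 14 were newly past it and 15 reversed. Small falls depend on the scaling. With library size only, 5494 genes were higher and 326 lower than in controls, 1237 and 56 past 2-fold, and 1098 higher and 104 lower than at 2 weeks, and the medians of capillary fatty acid uptake (0.05), ion channel (0.01), NRF2 (0.15), clock (0.05), endocardial (0.01) and lymphatic lists (0.03) turned positive. With log2(TPM + 1) in limma, 7354 genes were higher and 118 lower, 8 were lower past 2-fold, and 1026 were higher and 47 lower than at 2 weeks. Medians turned positive there for respiratory chain (0.01), capillary (0.18), ion channel (0.13), NRF2 (0.16), clock (0.18), endocardial (0.12), lymphatic (0.13) and red cell and platelet lists (0.06), and so did Cd36 (0.07), Pln (0.05) and Prox1 (0.02). With log2(TPM + 0.1), 7342 were higher and 121 lower, 1373 and 31 past 2-fold and 37 lower than at 2 weeks, with 0.01, 0.2, 0.14, 0.21, 0.2, 0.25 and 0.16 for the first 7 lists, 0.12 for skeletal muscle, and 0.07, 0.05 and 0.03 for the 3 genes. With voom and sample weights 466 genes were lower than at 2 weeks and the skeletal muscle median was 0.09. Against a 2-fold null hypothesis, 140 genes were higher and 6 lower. With the atrial genes Myl7, Myl4 and Sln as covariate, an alternative chosen after seeing the data, the atrial median was 0.04 and Gja1 was -0.02. The causes were not tested.

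Replicate numbers share no stated litter or day, and they carry the level of Y-linked genes. They were not taken to pair the mice, since the correlation of same-numbered mice was -0.0828 to 0.104 and passed 0.1 in 1 of 6 pairs. With a replicate block, 190 genes in place of 303 were lower than at 2 weeks, and the other counts stayed within 1.5 times. Leaving out 1 mouse at a time gave 1715 to 2130 genes higher and 1332 to 1797 lower, 683 to 889 and 83 to 117 past 2-fold, and 219 to 625 higher and 104 to 414 lower than at 2 weeks. Without 6-week replicates 1, 3 and 6 these last were 284 and 134, 270 and 121, and 219 and 104, and without replicate 5 181 were lower. The same omissions moved Col1a1 between -0.05 and 0.63, Gja1 between -0.04 and 0.04 and the neutrophil median between -0.17 and 1.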
